A study of Mus musculus with 20 samples.

Results

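The MHC class II genes were read in bulk RNA-seq of mouse bone marrow neutrophils. The set was the 7 genes H2-Aa, H2-Ab1, H2-Eb1, Cd74, H2-DMa, H2-DMb1 and Ciita, found by symbol among the 24421 genes that each file lists. All 7 passed the filter on low counts, which left 14030 genes to test. The mice fell into 4 groups of 5, with 1 library per mouse: untreated WT, untreated Bmal1 Mye-/- (a Bmal1 myeloid conditional KO, here called KO), imiquimod (IMQ) treated WT and IMQ treated KO. WT mice were C57BL/6J, and KO mice carried Bmal1 flox/flox with LysMCre, in which Cre is placed in the Lyz2 locus and acts in myeloid cells as a whole and not in neutrophils alone. The WT mice were not given as carriers of the floxed allele or of Cre, so loss of Bmal1 cannot be told apart from these. All mice were female, and the treated mice, 8 to 10 weeks old at the start, received a 5% IMQ cream on the ears 3 times a week for 6 weeks. IMQ is an agonist of the RNA-sensing receptor TLR7, and the marrow was taken at zeitgeber time 1 to 4, shortly after lights on. Neutrophils were enriched by removing other cells with antibodies and magnets, so cells that escaped removal stayed in the sample.

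MHC class II molecules present peptides from the endosomal route to CD4+ T cells. An alpha and a beta chain (H2-Aa with H2-Ab1 in the A molecule, a separate alpha chain with H2-Eb1 in the E molecule) assemble on the invariant chain, encoded by Cd74, which fills the groove until proteases cut it down. The peptide editor H2-DM, a pair of H2-DMa and a beta chain such as H2-DMb1, then exchanges the remaining fragment for other peptides. Ciita, the class II transactivator, does not bind DNA itself but is recruited to class II promoters by the RFX complex on the X box and NF-Y on the Y box, and is needed for their transcription. B cells, dendritic cells and macrophages carry the most class II. Resting neutrophils carry little.

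The shared promoter layout is shown because it is the feature that ties these genes to Ciita. RefSeq promoter windows on GRCm38.p6, each with 250 bases before and 50 after an annotated start, held 4 of the 6 members looked up (H2-Aa, H2-Eb1, H2-DMb1 and H2-DMa). H2-Ab1 and Ciita had no entry, and the window of Cd74 was not analysed here. The letters GNAAC (the core of the X box) followed 20 to 40 bases later by TGATTGG (the Y box) were searched on both strands. The pair stood in 0.569% of all 32851 windows and in the windows of H2-Aa, H2-Eb1 and H2-DMb1, but in neither of the 2 windows of H2-DMa. TGATTGG, with or without the other motif, stood in 7.82% of all windows. The stretches of one alpha and one beta chain gene are given 5′ to 3′ on the strand of the gene, with GNAAC and TGATTGG in capitals.
H2-Aa, chr17:34287862-34287909, minus strand: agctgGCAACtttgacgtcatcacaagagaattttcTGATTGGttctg
H2-Eb1, chr17:34305771-34305817, plus strand: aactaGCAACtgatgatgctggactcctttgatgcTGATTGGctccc

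The spacing from the first base of GNAAC to the first base of TGATTGG was 31 bases in H2-Aa, 30 in H2-Eb1 and 31 in H2-DMb1, and the Y box began 50, 61 and 63 bases before the RefSeq start. In H2-DMb1 these bases lie inside the longer transcript of GENCODE and are not printed. The E-box CACGTG, a sequence bound by BMAL1 with its partner CLOCK, was in none of the 5 windows of these 4 genes and in 7.15% of all windows. That says only that these letters are not in these windows. The motifs were chosen with values of these data known, and a match is a description of sequence, not of binding.

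Before the members, the libraries were compared with their labels. Counts on genes were 30782166 to 92613500 per library. Arntl, which encodes BMAL1, was at 1.35 ± 0.322 CPM (read counts relative to the library size, scaled by TMM factors, mean ± SD, n = 5) in untreated WT and 0.720 ± 0.240 in untreated KO, and the groups overlapped (edgeR quasi-likelihood, adjusted p = 1). With IMQ it was at 1.11 ± 0.474 and 0.702 ± 0.477 (adjusted p = 0.305). Lyz2, where Cre is inserted, was at 11410 ± 593 CPM in untreated WT against 135 ± 29.8 in untreated KO and at 8058 ± 3357 against 98.4 ± 27.3 with IMQ, with no overlap, so every library matched its genotype by Lyz2. The 9 neutrophil genes measured, led by S100a9 and S100a8, summed to 94500 to 116600 CPM in all but 3 IMQ libraries. Replicate 3 of IMQ treated WT was at 71680 CPM and replicate 5 of IMQ treated KO at 75530 CPM. The former also had the lowest Cd74 of all libraries, 4.01 CPM. Replicate 1 of IMQ treated KO had the lowest sum, 51460 CPM, and the highest sum of 6 monocyte genes, 1450 CPM against 107 to 526 in the other 4 libraries of its group. Results that rest on it are given with and without it.

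Levels were ordered per kilobase of the principal GENCODE M21 transcript. In untreated WT neutrophils Cd74 was at 46.6 ± 22.6 CPM per kb (mean ± SD, n = 5). H2-Ab1 was at 6.40 ± 2.87, H2-Aa at 4.03 ± 1.83, H2-DMa at 3.16 ± 0.577, H2-Eb1 at 3.02 ± 1.27 and H2-DMb1 at 2.03 ± 0.283 CPM per kb. Ciita was lowest, at 0.0642 ± 0.0426 CPM per kb. Cd74 and Ciita stood apart from the rest, while neighbours among the other 5 genes lay within their spread. In IMQ treated KO neutrophils the means were 14.2 ± 9.45 CPM per kb for Cd74, 6.91 ± 7.30 for H2-DMa, 5.135 ± 3.99 for H2-DMb1, 4.13 ± 2.95 for H2-Ab1, 2.56 ± 2.65 for H2-Aa, 1.62 ± 1.69 for H2-Eb1 and 0.132 ± 0.145 for Ciita, so both H2-DM genes stood above the 3 chains in the order of means, within a spread as large as most of the means. Without replicate 1 the means (n = 4) were 3.77 ± 2.28 CPM per kb for H2-DMa, 3.41 ± 1.16 for H2-DMb1, 2.84 ± 0.766 for H2-Ab1, 1.48 ± 1.23 for H2-Aa and 0.898 ± 0.566 for H2-Eb1. The first 3 of these lay within their spread. Cd74 made up 61.1% to 77.0% of the summed CPM of the 7 genes in the untreated libraries and 21.1% to 64.1% in the IMQ libraries.

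**Figure D1:**
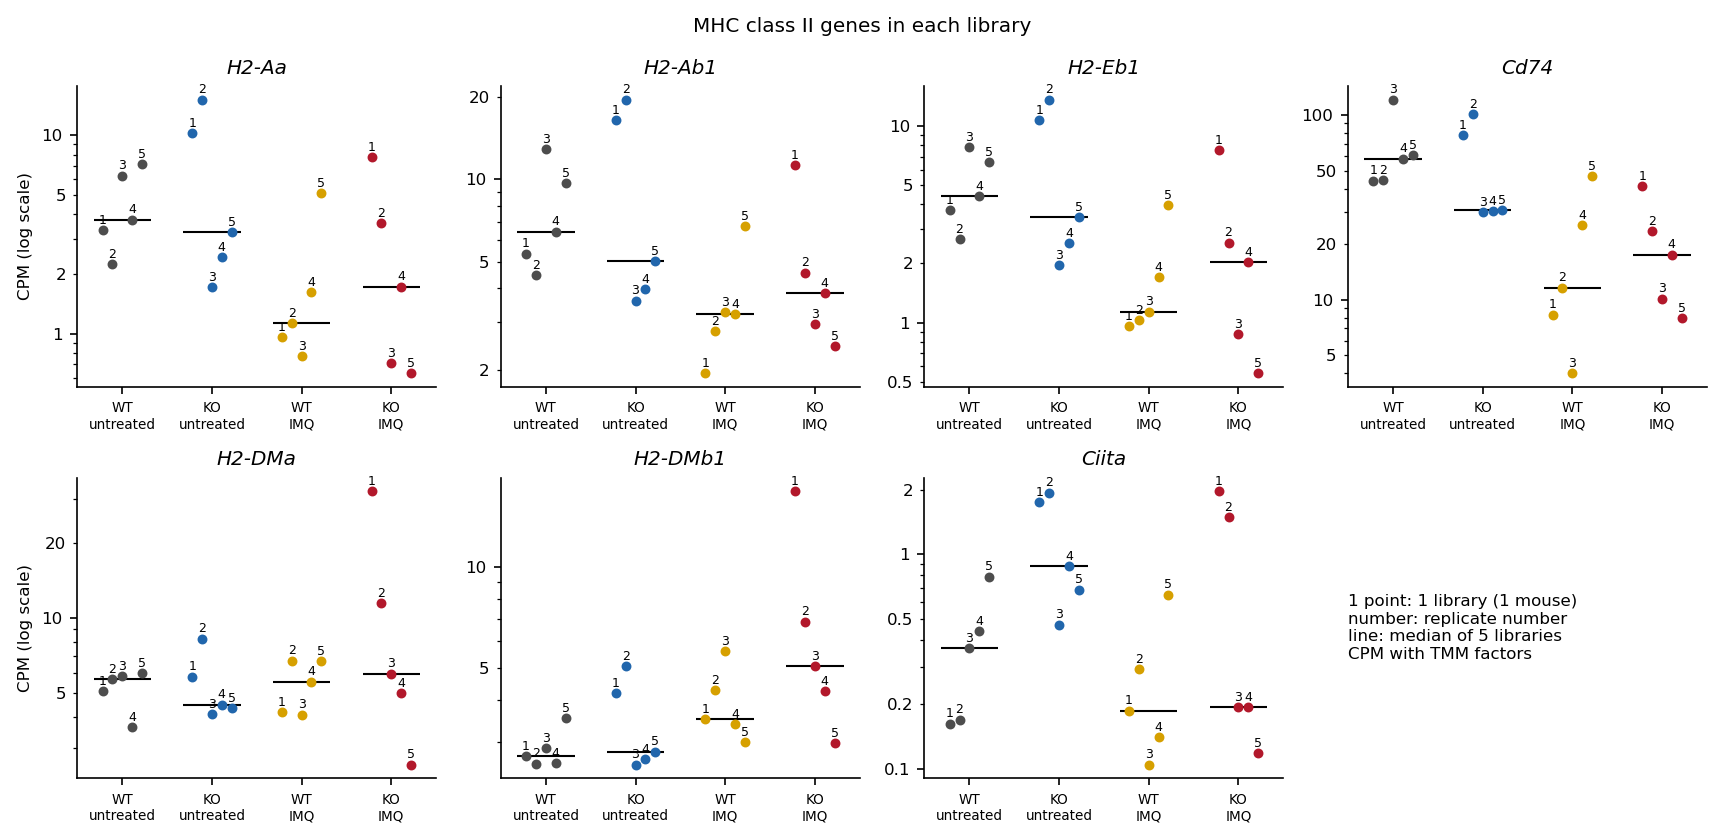
CPM (log scale) of the 7 genes in each of the 20 libraries, by group. Points are libraries with their replicate number, and lines are medians. Cd74 ran from 44.1 to 121 CPM in untreated WT and from 4.01 to 46.6 CPM in IMQ treated WT, and replicate 1 of IMQ treated KO had the highest H2-DMa (32.3 CPM) and H2-DMb1 (16.9 CPM).

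The first comparison asked whether loss of Bmal1 in myeloid cells went with class II transcripts in untreated mice. None of the 7 genes passed the threshold. Cd74 was at 44.1, 44.4, 121, 58.0 and 60.6 CPM in replicates 1 to 5 of untreated WT and at 77.5, 101, 29.8, 30.2 and 30.7 CPM in untreated KO. H2-Aa was at 3.33, 2.24, 6.28, 3.76 and 7.14 CPM in untreated WT and at 10.25, 15.15, 1.72, 2.43 and 3.24 CPM in untreated KO. For both genes replicates 1 and 2 of the KO group were above its other 3 libraries, and the KO and WT ranges overlapped. The log2 fold changes of KO against WT were 0.53 ± 0.70 (SE) for H2-Aa, 0.33 ± 0.51 for H2-Ab1, 0.36 ± 0.64 for H2-Eb1, -0.28 ± 0.57 for Cd74, 0.04 ± 0.46 for H2-DMa and 0.28 ± 0.35 for H2-DMb1.

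Ciita had the largest value of the 7 in this comparison. It was at 0.163, 0.170, 0.367, 0.440 and 0.788 CPM in untreated WT and at 1.75, 1.94, 0.471, 0.879 and 0.685 CPM in untreated KO. In 3 KO libraries it was above every WT library, and the groups overlapped. The log2 fold change was 1.58 ± 0.73 (edgeR quasi-likelihood, Benjamini-Hochberg adjusted p = 1 over all genes tested). The counts behind it were low, 11 to 52 reads per library in WT and 14 to 180 in KO. By edgeR 0.207% of all genes passed the adjusted threshold in this comparison, and 0 of the 7 members did. An unadjusted p below 0.05 was held by 1 member, against 307 of the 14030 genes tested. DESeq2, which called 0.272% of all genes, and an analysis of variance on log2 CPM called 0 members.

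With IMQ, KO against WT again gave no call among the members, against 0.292% of all genes. Without replicate 3 of IMQ treated WT, 3129 genes were called and still 0 members. By edgeR 2 of the 7 were below an unadjusted p of 0.05, against 2788 of the 14030 genes tested. DESeq2, which called 2.22% of all genes, and the analysis of variance called 0 members. H2-DMb1, a beta chain of the peptide editor, was at 3.49, 4.27, 5.597, 3.38 and 2.99 CPM in IMQ treated WT and at 16.9, 6.87, 5.06, 4.24 and 2.97 CPM in IMQ treated KO. The KO group held both the highest and the lowest library. Its log2 fold change was 0.87 ± 0.35 (adjusted p = 0.227) and 0.29 without replicate 1 of IMQ treated KO. H2-DMa, its alpha chain partner, was at 4.18, 6.72, 4.08, 5.53 and 6.71 CPM in IMQ treated WT and at 32.3, 11.49, 5.96, 4.96 and 2.57 CPM in IMQ treated KO. Here too KO held the highest and the lowest library, and the log2 fold change of 1.07 ± 0.46 (adjusted p = 0.235) became 0.20 without that library.

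Ciita with IMQ was at 0.187, 0.291, 0.105, 0.141 and 0.650 CPM in WT and at 1.97, 1.49, 0.195, 0.195 and 0.118 CPM in KO. Only replicates 1 and 2 of the KO group were above the WT range, and the log2 fold change was 1.52 ± 0.75 (adjusted p = 0.254), or 0.83 without replicate 1. The chains and Cd74 had log2 fold changes of 0.06 to 0.62, with adjusted p of 0.542 to 0.951, and without replicate 1 of IMQ treated KO all 4 values were below 0 (-0.38 to -0.05). The test of the interaction asks whether the IMQ difference itself depended on the genotype. It gave 0 members by edgeR, DESeq2 and the analysis of variance, against 0% of all genes by edgeR and DESeq2. An unadjusted p below 0.05 by edgeR was held by 0 members, against 721 of the 14030 genes tested. The interaction estimate was 1.03 ± 0.65 for H2-DMa and 0.59 ± 0.50 for H2-DMb1 on the log2 scale, and 0.17 and 0.02 without replicate 1 of IMQ treated KO.

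**Figure D2:**
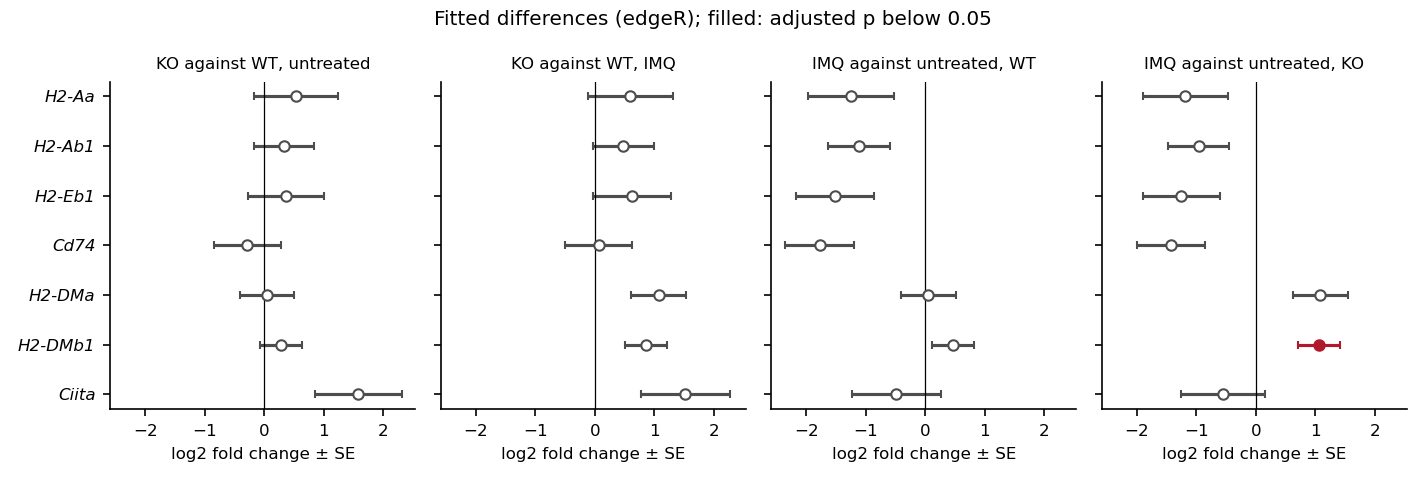
Log2 fold changes with standard errors of the 7 genes in 4 comparisons from the edgeR fit with all 20 libraries. The 3 chains and Cd74 lie left of 0 in both IMQ comparisons, and the filled point, H2-DMb1 in KO mice (1.06 ± 0.36), is the one with an adjusted p below 0.05.

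In WT mice, IMQ was compared with no treatment. The chains and Cd74 were lower in 4 of the 5 IMQ libraries than in any untreated library, and replicate 5 of the IMQ group was the exception for all 4 genes. Cd74, the invariant chain, was at 8.32, 11.65, 4.01, 25.4 and 46.6 CPM with IMQ. Its mean was 65.6 ± 31.9 CPM (SD, n = 5) without and 19.2 ± 17.3 CPM with IMQ, 3.42 times lower. The log2 fold change was -1.77 ± 0.58 (edgeR quasi-likelihood, adjusted p = 0.0829), which missed the threshold. Without replicate 5 of IMQ treated WT it was -2.41 with an adjusted p of 0.0119, in a fit that called 1989 genes against 554 in the main fit. DESeq2 also called Cd74 (adjusted p = 0.0219), in a test that called 10.6% of all genes.

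In each chain replicate 5 was again the highest of the IMQ libraries. H2-Ab1, the beta chain of the A molecule, was at 5.35, 4.45, 12.9, 6.43 and 9.67 CPM in untreated WT and at 1.96, 2.78, 3.27, 3.21 and 6.73 CPM with IMQ. The log2 fold change was -1.11 ± 0.52 (adjusted p = 0.210). H2-Eb1, the beta chain of the E molecule, was at 3.72, 2.65, 7.83, 4.41 and 6.58 CPM without and at 0.957, 1.03, 1.14, 1.71 and 3.98 CPM with IMQ, a log2 fold change of -1.51 ± 0.66 (adjusted p = 0.179). H2-Aa, the alpha chain of the A molecule, was at 0.957, 1.13, 0.770, 1.62 and 5.11 CPM with IMQ, and its log2 fold change was -1.25 ± 0.72 (adjusted p = 0.324). Without replicate 5 of IMQ treated WT the values were -1.47 for H2-Ab1, -2.06 for H2-Eb1 and -2.02 for H2-Aa, with adjusted p of 0.0769, 0.0538 and 0.0732. These come from the fit that called 1989 genes. By edgeR 0 of the 7 members were called, against 3.95% of all genes. An unadjusted p below 0.05 was held by 3 members, against 3129 of the 14030 genes tested. DESeq2 called 1 and the analysis of variance 0. In bulk RNA, fewer cells of a type and less RNA per cell cannot be told apart.

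The H2-DM genes in WT had estimates near or above 0. H2-DMa was at 5.08, 5.68, 5.83, 3.64 and 5.97 CPM in untreated WT, a range that held 3 of the 5 IMQ values given above, with a log2 fold change of 0.05 ± 0.46. H2-DMb1 was at 2.71, 2.58, 2.87, 2.58 and 3.53 CPM in untreated WT, and all 5 IMQ libraries were above the untreated median, with a log2 fold change of 0.47 ± 0.35 (adjusted p = 0.468). Ciita was below every untreated library in 2 of the 5 IMQ libraries, with a log2 fold change of -0.48 ± 0.75 (adjusted p = 0.752), or -1.10 without replicate 5 of IMQ treated WT (adjusted p = 0.388). Whether the members differed from each other in this comparison was not tested.

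In KO mice, H2-DMb1 rose with IMQ. It was at 4.18, 5.05, 2.56, 2.66 and 2.80 CPM in untreated KO, against 2.97 to 16.9 CPM with IMQ, and 3 of the 5 IMQ libraries were above every untreated one. The log2 fold change was 1.06 ± 0.36 (edgeR quasi-likelihood, adjusted p = 0.0388), in a comparison in which 23.5% of all genes were called, and DESeq2 called 2 members (H2-DMb1 and Cd74) against 31.1% of all genes and the analysis of variance 0. Without replicate 1 of IMQ treated KO the log2 fold change was 0.48 and the adjusted p 0.188. The call was also lost without untreated KO replicate 1, 3, 4 or 5 (adjusted p = 0.0556, 0.0725, 0.0936 and 0.0731), where the log2 fold change stayed at 0.98 to 1.14. H2-DMa, with 5.79, 8.24, 4.11, 4.47 and 4.32 CPM in untreated KO, had a log2 fold change of 1.09 ± 0.46 (adjusted p = 0.0886), and 0.22 without replicate 1 of IMQ treated KO. It passed the threshold without replicate 4 or 5 of that group, at 1.29 and 1.35 (adjusted p = 0.0447 and 0.0406). With each library left out in turn, 1612 to 4499 of all genes were called in this comparison.

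The chains, Cd74 and Ciita in KO mice had estimates below 0. Cd74 was at 41.2, 23.4, 10.15, 17.6 and 7.96 CPM with IMQ, and 4 of these 5 libraries were below every untreated KO library. Its mean was 53.9 ± 33.4 CPM (SD, n = 5) without and 20.1 ± 13.3 CPM with IMQ. The log2 fold change was -1.43 ± 0.58 (adjusted p = 0.0763), or -1.86 with an adjusted p of 0.0462 without replicate 1 of IMQ treated KO. Its adjusted p was 0.0444 without replicate 3 of IMQ treated WT, which enters through the shared estimate of spread. That last fit called 4499 genes in this comparison, against 3292 in the main fit. Over all fits with 1 library left out the number ran from 1612 to 4499. H2-Aa (-1.19 ± 0.71), H2-Ab1 (-0.96 ± 0.51) and H2-Eb1 (-1.26 ± 0.65) had adjusted p of 0.155 to 0.218. H2-Eb1 passed the threshold without replicate 1 of IMQ treated KO, at -2.11 with an adjusted p of 0.0332, where H2-Aa was at -1.99 and H2-Ab1 at -1.49 (adjusted p = 0.0668 and 0.0533). Without replicate 2 of untreated KO the values were smaller, at -0.61 for H2-Aa, -0.54 for H2-Ab1, -0.79 for H2-Eb1 and -1.07 for Cd74 (adjusted p of 0.2 to 0.556). Ciita had -0.55 ± 0.71 (adjusted p = 0.588), from -1.24 to -0.26 with each library left out, with 3 of its 5 IMQ libraries below every untreated one and 1 above.

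Deviations of untreated and IMQ treated KO libraries of the same number correlated over all tested genes (r of 0.128 to 0.426 in the 5 pairs). In WT these values were 0.0728 to 0.384. Pairs of unlike number were not compared, and the labels do not say that the numbers pair mice or mark a batch. As a choice made on these data, the comparison was also made within the 2 KO groups with the replicate number as a block. With this replicate block the log2 fold change was -1.45 ± 0.21 for Cd74 (adjusted p = 0.00331), -1.29 ± 0.33 for H2-Aa (adjusted p = 0.0249) and -1.38 ± 0.38 for H2-Eb1 (adjusted p = 0.0329), so that 3 of the 7 members were called lower, against 9.67% of all genes called lower and 23.6% called in either direction by this fit. H2-DMb1 was at 0.85 ± 0.27 (adjusted p = 0.0528) and lost its call. With all 4 groups and the same block 0 members were called, and H2-DMb1 was at 0.93 (adjusted p = 0.0556).

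**Figure D3:**
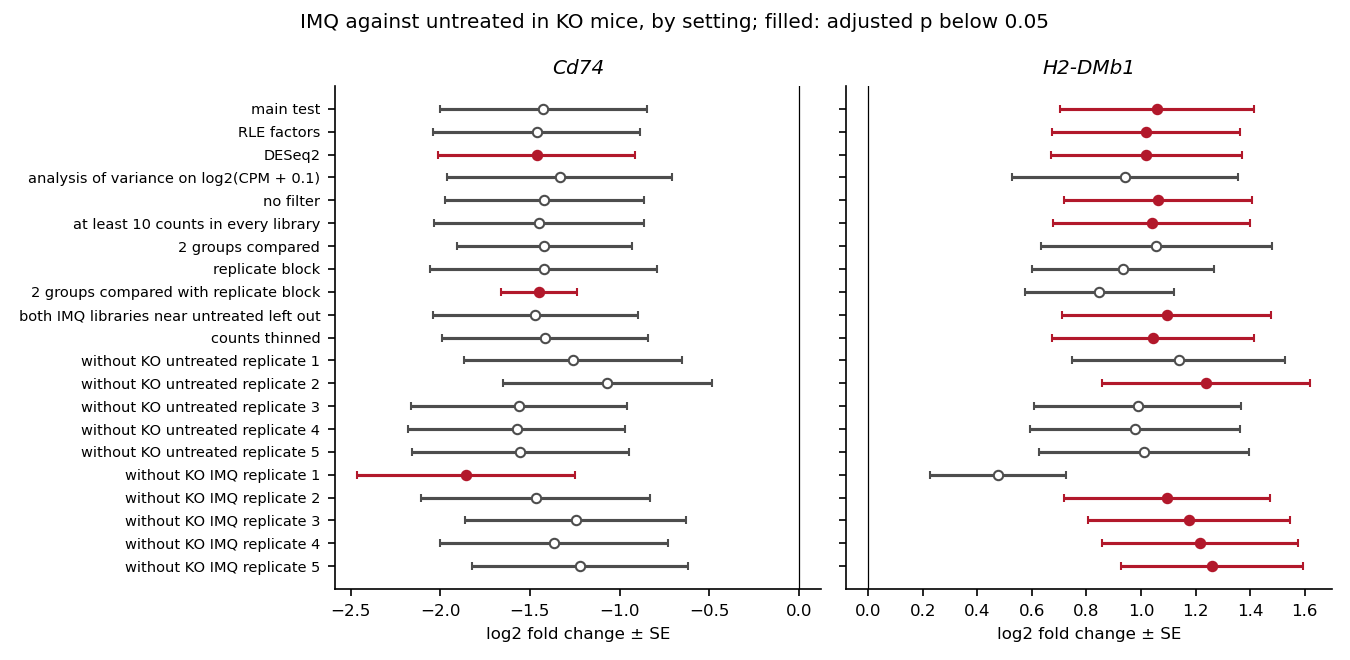
Log2 fold change with standard error of Cd74 and H2-DMb1 for IMQ against untreated in KO mice, under the main test and 20 other settings. Filled points have an adjusted p below 0.05. H2-DMb1 falls from 1.06 to 0.48 without replicate 1 of IMQ treated KO, and Cd74 stays below 0 throughout.

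How the members varied together was read over the 20 libraries on log2 CPM. The 3 chains and Cd74 gave Pearson r of 0.85 to 0.98 in their 6 pairs, and 0.80 to 0.98 after each group was centred on its mean, so libraries of a group that were high in one were high in the others. H2-DMa and H2-DMb1 had r = 0.83 (Spearman rho = 0.57, two-sided permutation p = 0.00017 and 0.00987, adjusted over 21 pairs 0.000446 and 0.0181), and r = 0.57 without replicate 1 of IMQ treated KO. H2-DMb1 and Cd74 had r = -0.14 (rho = -0.28, permutation p = 0.553 and 0.234, adjusted 0.553 and 0.289), and 0.36 within groups. After centring, H2-DMb1 had r of 0.63 to 0.69 with the 3 chains and H2-DMa 0.68 to 0.77, against 0.15 to 0.23 and 0.46 to 0.51 without it. Pooled within groups, libraries high in the chains thus tended to be high in the H2-DM genes too, but this did not hold in every group. In IMQ treated WT, replicate 5 had the highest chains and the lowest H2-DMb1 (2.99 CPM). Without replicate 1 of IMQ treated KO, and not centred, H2-DMb1 had r of -0.09 to 0.03 with the chains and H2-DMa 0.41 to 0.50. Centred values without that library were not computed. Ciita had r = 0.81 with H2-Aa (rho = 0.78, permutation p = 3e-05 and 0.00011, adjusted 9e-05 and 0.00033) and r = 0.61 with H2-DMa (rho = 0.57, permutation p = 0.00127 and 0.00923, adjusted 0.00242 and 0.0181). Without its 2 farthest libraries the value with H2-DMa was 0.48. Per kilobase, H2-DMa over H2-Ab1 was 0.331 to 0.933 in untreated WT, 0.258 to 0.833 in untreated KO, 0.729 to 1.77 in IMQ treated WT and 0.762 to 2.099 in IMQ treated KO.

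Markers of other marrow cells moved with the chains and Cd74. The 5 plasma cell genes, led by Jchain, Xbp1 and Mzb1, summed to 421 to 1561 CPM in untreated WT and 409 to 1138 CPM in untreated KO, and to 152 to 422 CPM and 196 to 294 CPM with IMQ. Mean Jchain was 576.6 CPM in untreated WT and 98.02 with IMQ, and 567.0 and 89.04 in KO. Means of Mzb1, Sdc1 and Tnfrsf17 were also lower with IMQ in both genotypes. Xbp1 did not follow, with means of 128.4 and 117.1 CPM in WT and 124.8 and 143.4 in KO. By these means Jchain was the larger part of the sum without IMQ, and Xbp1 with it. The library with the highest sum in untreated WT was replicate 3, in untreated KO replicate 2, in IMQ treated WT replicate 5 and in IMQ treated KO replicate 1, and each of these 4 libraries also had the highest Cd74 of its group. Over the 20 libraries the list had r = 0.91 with Cd74 (rho = 0.94, permutation p = 1e-05 for both, the smallest that 100000 permutations give, adjusted over 70 pairs 0.000117 and 0.000175), 0.88 without its 2 farthest libraries and 0.81 within groups. With H2-DMb1 the same list had r = -0.26 (rho = -0.36, permutation p = 0.28 and 0.124, adjusted 0.363 and 0.197), and 0.28 within groups.

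The later B lineage list, 10 genes led by Bank1, Cd79a and Cd79b, had r = 0.92 with Cd74 (rho = 0.94, permutation p = 1e-05 for both, adjusted 0.000117 and 0.000175) and 0.88 within groups. It summed to 16.1 to 35.6 CPM in untreated WT, 17.9 to 34.0 CPM in untreated KO, 9.15 to 21.6 CPM in IMQ treated WT and 9.47 to 13.8 CPM in IMQ treated KO. Of its defining genes, Ms4a1 (the gene for CD20) was at 0.639 CPM at most and at 0 in 3 IMQ treated WT, 1 IMQ treated KO and 1 untreated KO library, and Cd79a was at 2.57 to 12.9 CPM in all libraries. With IMQ, Jchain fell by 2.56 in WT (log2, adjusted p = 0.0298) and fell by 2.67 in KO (adjusted p = 0.00894). The call of Jchain in WT was lost in 8 of 20 fits with 1 library left out (adjusted p of at most 0.106), and its call in KO in none of 20. All 8 left out a WT library, namely replicate 2, 3, 4 or 5 of untreated WT or 1, 2, 3 or 4 of IMQ treated WT. The fits without a KO library, which is outside the WT comparison, kept the call in WT. The part of plasma cells and B lineage cells in the difference of the chains and Cd74 was not tested.

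Monocyte genes moved with the H2-DM genes and with other members. The 6 genes of that list, led by Csf1r, F13a1 and Ccr2, had r = 0.82 with H2-DMa (rho = 0.39, permutation p = 0.00023 and 0.0893, adjusted 0.00115 and 0.153) and r = 0.68 with H2-DMb1 (rho = 0.32, permutation p = 0.00686 and 0.173, adjusted 0.0178 and 0.243). Without the 2 libraries farthest from the median of the list r was 0.39 and 0.23, so both relations rest on those libraries. Within groups r was 0.84 and 0.79. With H2-Aa, H2-Ab1 and H2-Eb1 the list had r of 0.60, 0.52 and 0.58 (permutation p = 0.0036, 0.0169 and 0.00526, adjusted 0.0101, 0.0319 and 0.0142) and rho of 0.62, 0.58 and 0.55 (permutation p = 0.00488, 0.00906 and 0.0136, adjusted 0.0142, 0.0219 and 0.0297). With those libraries left out r was 0.52, 0.42 and 0.46, and within groups it was 0.62 to 0.74. With Ciita r was 0.66 (rho = 0.61, permutation p = 0.00037 and 0.00463, adjusted 0.00162 and 0.0141), 0.56 with the same libraries left out, and with Cd74 it was 0.35 (rho = 0.35, permutation p = 0.126 and 0.135, adjusted 0.184 and 0.206). Csf1r was at 194 to 223 CPM in untreated KO and at 217 CPM in replicate 1 of IMQ treated KO, within that range. Its other 4 IMQ treated KO libraries were at 12.3 to 143 CPM. In replicate 1 of IMQ treated KO, Ccr2 was at 416 CPM and F13a1 at 680 CPM, against 25.35 to 106 and 49.4 to 239.5 CPM in the other 4 libraries of the group. The same library had 5.92 times the median H2-DMa, 3.63 times the median H2-DMb1 and 10.1 times the median Ciita of those 4. Of the defining genes of dendritic cells and macrophages, Zbtb46 was at 0 to 1.105 CPM, Siglech at 0 to 0.528 CPM, Flt3 at 0.528 to 2.97 CPM, C1qa at 0.415 to 5.39 CPM and Adgre1 at 4.18 to 44.4 CPM over the 20 libraries. The part of monocytes in the H2-DM values was not tested.

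**Figure D4:**
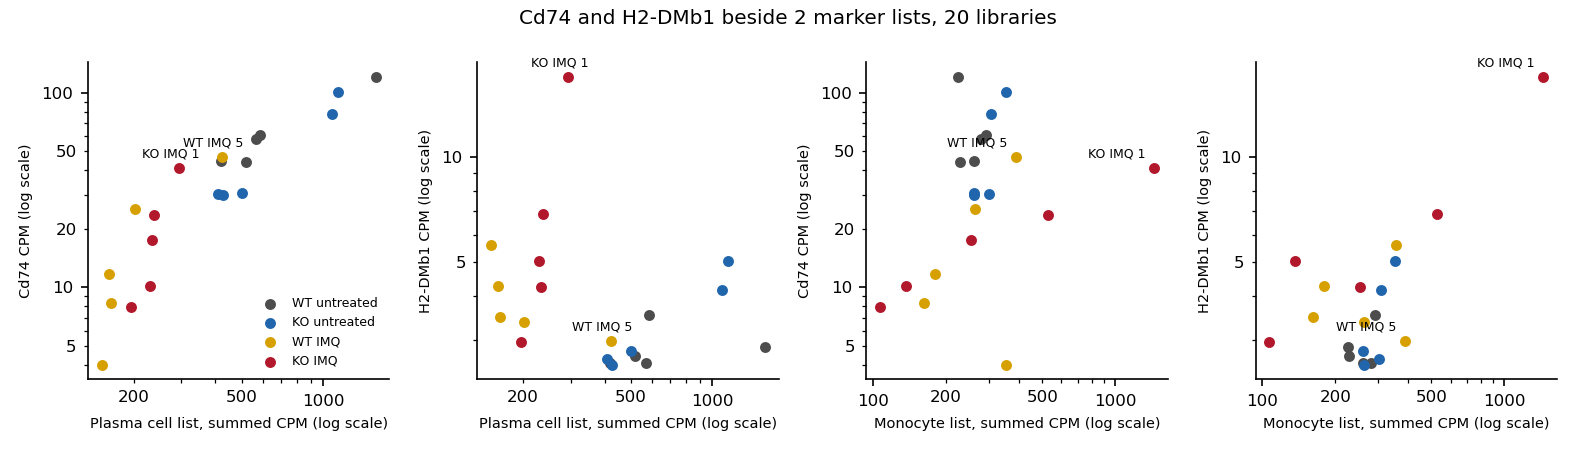
CPM of Cd74 and H2-DMb1 against the summed CPM of the plasma cell and the monocyte list (all axes log scale), 20 libraries coloured by group. Cd74 is higher where the plasma cell list is (r = 0.91), H2-DMb1 has r = -0.26 with it, and replicate 1 of IMQ treated KO stands alone at the top right of the monocyte panel for H2-DMb1.

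The other lists were read in the same way. Adjusted p-values of r were below 0.05 in 40 of the 70 pairs of a member and a list. These were 8 of 10 lists for H2-Aa and H2-Eb1, 7 for H2-Ab1 and Ciita, 6 for Cd74 and 2 for each H2-DM gene. The permutations took no account of group, so a gene and a list that both differ between groups can pass without varying together within them. The T and NK list passed with Cd74 at r = 0.55, and had 0.15 within groups. The eosinophil, basophil and mast cell list passed with no member (r of 0.15 to 0.29). The neutrophil list passed with H2-DMb1 alone, at r = -0.66 (rho = -0.18, permutation p = 0.0133 and 0.439, adjusted 0.0283 and 0.53), which became 0.14 without the 2 farthest libraries and so rests on them. The conventional dendritic cell list drew 89.9% of its sum from Wdfy4, and had r = 0.63 with Cd74 (rho = 0.60, permutation p = 0.00258 and 0.00618, adjusted 0.00752 and 0.016). The macrophage list had r = 0.71 with H2-Ab1 (rho = 0.74, permutation p = 0.00056 and 0.00033, adjusted 0.00218 and 0.0021). The plasmacytoid dendritic cell list had r = 0.74 with H2-Ab1 (rho = 0.75, permutation p = 0.0002 and 0.00019, adjusted 0.00108 and 0.00148), the early B lineage list 0.77 (rho = 0.72, permutation p = 5e-05 and 0.00049, adjusted 0.00035 and 0.00286) and the T and NK list 0.57 (rho = 0.62, permutation p = 0.00877 and 0.00445, adjusted 0.0212 and 0.0141), the last with 0.32 within groups.

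**Figure D5:**
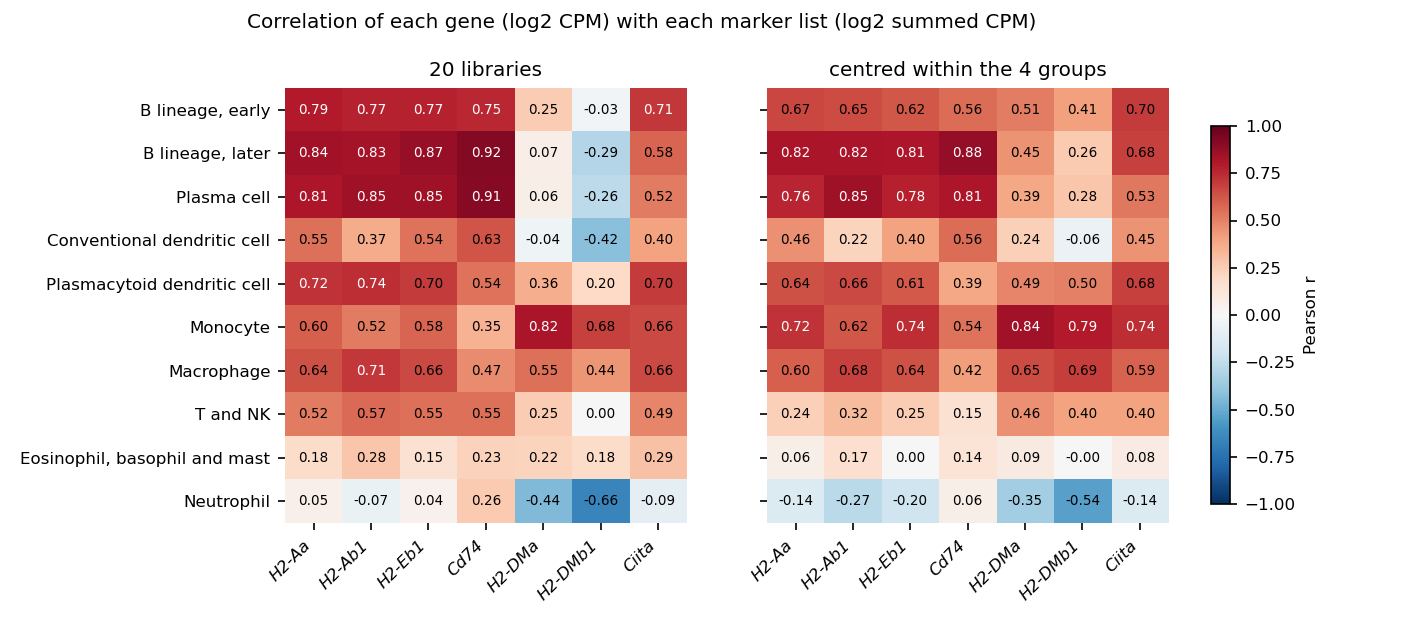
Pearson r of each gene (log2 CPM) with the summed level of each of 10 marker lists over 20 libraries (left) and after centring each of the 4 groups (right). The chains and Cd74 are highest with the later B lineage and plasma cell lists (0.81 to 0.92), H2-DMa and H2-DMb1 with the monocyte list (0.82 and 0.68).

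The genes most like the members were ranked by Pearson r with the mean of the 7 standardized log2 CPM profiles over the 20 libraries, as a description with no test. The first 10 included Atp8b2 (r = 0.938), Cyp27a1 (0.914), Arl5c (0.912), Hivep3 (0.905), Mrc1 (0.897), Padi2 (0.894), Kif19a (0.893), Cx3cr1 (0.892) and Pid1 (0.891). Each of these had its highest CPM in replicate 1 of IMQ treated KO. Cx3cr1, a chemokine receptor of monocytes, was at 1.12 to 31.3 CPM and Mrc1, the macrophage mannose receptor, at 0.104 to 4.36 CPM. The chains with Cd74 and the H2-DM genes were then ranked apart, a choice made after the values were seen. The first 10 for the chains and Cd74 included Irf4 (0.918), Prdm1 (0.902) and Mzb1 (0.898), genes of plasma cells, with Txndc5 (0.902). Those for the H2-DM genes included Ly86 (0.956), Ifi30 (0.947), Pld4 (0.958) and S100a4 (0.965), all 4 highest in replicate 1 of IMQ treated KO.

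The rest of the class II route was taken from a list of 34 genes in 6 roles, of which 31 were tested. KO against WT called 0 of them by edgeR, without or with IMQ. Those below an unadjusted p of 0.05 were 0 and 6 of 31, against 307 and 2788 of the 14030 genes tested. The median log2 fold changes of the 31 genes were 0.0742 and 0.0120, against -0.00388 and 0.0335 for all genes. IMQ called 1 higher and 1 lower in WT and 3 higher and 2 lower in KO, 2 of 31 and 5 of 31 against 3.95% and 23.5% of all genes. Ifi30, the thiol reductase of the endosome (GILT), was at 12.35 to 28.4 CPM in untreated KO and at 275, 74.6, 32.3, 24.15 and 22.9 CPM with IMQ, so that replicates 1 and 2 led, and it rose by a log2 fold change of 2.24 ± 0.53 (adjusted p = 0.00919), or 1.09 without replicate 1 of IMQ treated KO (adjusted p = 0.0245). Irf8, a factor of monocyte and dendritic cell development, was at 133 and 46.1 CPM in replicates 1 and 2 of IMQ treated KO and at 8.29 to 14.1 CPM in the other 3, with a log2 fold change of 1.62 ± 0.55 (adjusted p = 0.0413). Without replicate 1 it was 0.56 (adjusted p = 0.324), and the call was also lost without untreated KO replicate 1, 3, 4 or 5. Ctss, the protease cathepsin S that trims the invariant chain, had 1.13 ± 0.44 (adjusted p = 0.0687).

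Among the factors of the class II promoter, Nfyb, a subunit of NF-Y, rose with IMQ in WT (log2 fold change 0.42 ± 0.11, adjusted p = 0.0454) and in KO (0.50 ± 0.11, adjusted p = 0.00825), and kept its call in 4 of 20 and 20 of 20 fits with 1 library left out. Prdm1 (BLIMP1), a repressor of Ciita in plasma cells, fell by 2.16 on the log2 scale with IMQ in WT (adjusted p = 0.0362, past the threshold in 11 of those 20 fits). Its call was lost without each untreated WT library in turn, and without replicate 1, 2, 3 or 4 of IMQ treated WT. The fits without a KO library, which is outside that comparison, kept it. Jak1, a kinase of the interferon receptors, fell by 0.60 in KO (adjusted p = 0.0470, 3 of 20 fits). Cd80, a costimulatory ligand, fell by 0.83 in KO (adjusted p = 0.0211, 19 of 20 fits, the exception being that without replicate 1 of IMQ treated KO with adjusted p = 0.0577). The closest relative of H2-DMb1, H2-DMb2, was at 2.88 to 3.78 CPM in untreated KO and 1.70 to 3.13 CPM with IMQ, a log2 fold change of -0.40 ± 0.18 (adjusted p = 0.104). H2-Eb2 had -2.21 ± 0.67 (adjusted p = 0.0655) and H2-Ob, a chain of the inhibitor of H2-DM, -1.87 ± 0.78 (adjusted p = 0.161) with IMQ in WT. H2-Ea-ps, the pseudogene of the E alpha chain in this strain, was at 0 to 0.0690 CPM.

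The genes lie on 3 chromosomes of GRCm38. The class II region on chromosome 17 holds H2-DMa (34119541 to 34139101, plus strand), H2-DMb1 (34153072 to 34160230, plus), H2-Ab1 (34257689 to 34269419, plus), H2-Aa (34282744 to 34287823, minus) and H2-Eb1 (34305867 to 34316674, plus). Ciita lies on chromosome 16 (10480059 to 10528418, plus) and Cd74 on chromosome 18 (60803848 to 60812652, plus). H2-DMb1 shared 27.2% of its 50-base words with H2-DMb2, so reads from the shared part could not be assigned to either by sequence, and its level is uncertain to that extent. Ciita shared 0.269% with Dexi, which overlaps it on the minus strand, and the other 5 members shared none with another gene. H2-DMa overlaps 4 annotated genes, with Brd2, CR974462.4 and Gm20493 on the opposite strand and CR974462.3 on its own. H2-Eb1 overlaps Gm20513 on the opposite strand, and Cd74 overlaps the microRNA gene Mir5107 on its own. The strand setting of the counting is not given in the sources used here, so reads of pairs on opposite strands may not have been told apart. For pairs on the same strand no strand setting would part them.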

How the data were processed

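Poly(A) libraries were made from bone marrow neutrophils of 20 mice. The authors deposited raw read counts per gene, with 5 summary lines per file that stayed out of all tests. The submitters' processing notes name STAR 2.7.8a, HTSeq 2.0.1 and mm10, while the study's methods name TopHat. Which gave the counts, the annotation, the strand setting and the sequencer of each library are not given in the sources used here. Genes held 37.4% to 42.0% of the reads in a file, and 51.9% to 57.8% lay on no feature. A table of all libraries repeats the same counts and was not used.

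Groups came from the labels. Counts were fitted in R 4.3.3 with edgeR 4.0.16 (TMM factors 0.854 to 1.38, filterByExpr, quasi-likelihood test, 4 groups, no block), with Benjamini-Hochberg adjustment over 14030 genes at 0.05 and SE derived from the quasi-likelihood F. The fit was tested on simulated data. Log2 CPM carry a prior count of 2. Libraries of a group differed by more than counting error (chi-square per degree of freedom 18.2 to 787 in 40 pairs). The p-values of the main fit set a group difference against the spread between these mice, estimated over the 4 groups together. Correlations used 100000 two-sided permutations of all 20 libraries, without regard to group.

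The members and all lists were chosen with earlier results of these data known. Named genes were the members, in each role of the route those past the threshold or among the 2 smallest p, leading and defining genes of marker lists, and genes among the 10 most alike, and some genes of these lists are not reported here. Alternatives were RLE factors, DESeq2 1.42.0, the study's analysis of variance on log2(CPM + 0.1), other filters, 2 groups in place of 4, a replicate block, thinned counts, 2 IMQ libraries left out (IMQ treated WT replicate 5 and KO replicate 2, which lay among untreated libraries on the first principal component), and each library left out in turn. The last was added for the class II route and Jchain after seeing the data. As a check of pairing, deviations of same-numbered libraries were correlated. Values were 0.128 to 0.426 in the 5 pairs of untreated and IMQ treated KO and 0.0728 to 0.384 in WT (over 0.1 in 4 of 5). In each treatment 2 of 5 pairs of WT and KO were over 0.1. Only the KO comparison is read with the block, a choice made on these values, and the labels name no pairing. Sequences are from RefSeq (GRCm38.p6), positions from GENCODE M21.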

Additional observations from a re-analysis of the deposited data

Results flagged for a closer look

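In groups of 5, a library was marked when its gap to the next one was over 0.71 of the range of the group. Of 28 groups of values (7 genes in 4 groups) 7 were marked. The limit marks about 1 in 20 groups of normal values. These genes varied together and normality of the CPM was not checked, so the count cannot be set against that share. Replicate 5 of IMQ treated WT was the highest of its group for H2-Aa at 5.11 CPM (next 1.62), H2-Ab1 at 6.73 CPM (next 3.27) and H2-Eb1 at 3.98 CPM (next 1.71). Replicate 1 of IMQ treated KO was the highest for H2-Ab1 at 11.25 CPM (next 4.55), H2-Eb1 at 7.55 CPM (next 2.55) and H2-DMb1 at 16.9 CPM (next 6.87). Replicate 3 of untreated WT was the highest for Cd74 at 121.1 CPM (next 60.6). The same 3 libraries also had the highest plasma cell sums of their groups, 422, 294 and 1561 CPM. What set them apart was not tested.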

How the results depend on the processing

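Of the alternatives to the fits, 1352 values kept direction and side of the threshold, 52 counts moved by over 1.5 times, 46 values changed sign, 12 gained and 65 lost a call. The cause was not tested where a setting does not itself remove samples or genes. Counts of members called with IMQ in KO were 2 by DESeq2, 0 by the analysis of variance, 0 with the 2 groups alone, 0 with the replicate block and 3 with both, and in WT 1 by DESeq2 and 1 without the 2 IMQ libraries near the untreated ones. H2-DMb1 in KO passed in 21 of 30 alternatives (adjusted p 0.0177 to 0.188), Cd74 in 4 of 30 in KO (0.00331 to 0.2) and in 3 of 30 in WT (0.0119 to 0.211). The 21 include every fit that left out a WT library, which is outside the KO comparison. Counts over all genes were 59 for KO against WT, untreated, with the 2 groups alone. With IMQ they were 311 by DESeq2, 16 with the 2 groups alone, 7 with the replicate block too and 22 without those 2 libraries. For all genes called, IMQ against untreated, WT, they were 1480 by DESeq2, 326 with no filter, 186 with the 2 groups alone, 190 with the replicate block, 39 with both and 2129 without those 2 libraries.

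Signs changed near 0 for H2-DMa (KO against WT, untreated, -0.026 with the replicate block, and IMQ in WT, -0.021 by the analysis of variance and -0.036 without the 2 libraries) and for Ciita in the interaction (0.021 with the replicate block, 0.22 without the 2 libraries, 0.20 with thinned counts). The correlation of H2-DMb1 with the neutrophil list became 0.135 without its 2 farthest libraries. Outside KO the check did not give r over 0.1 in all 5 same-numbered pairs, and the block changed no other call of a member.

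With each library left out in turn, members called ran from 0 to 2 (IMQ in KO) and 0 to 1 (IMQ in WT), and all genes called from 48 to 1989 (IMQ in WT, without untreated WT replicate 2 and IMQ treated WT replicate 5), 1612 to 4499 (IMQ in KO), 20 to 3129 (KO against WT, IMQ, without IMQ treated WT replicates 4 and 3) and 0 to 1 (interaction). Log2 fold changes of KO against WT, untreated, ran from -0.038 to 0.76 (H2-Aa), -0.092 to 0.57 (H2-Ab1), -0.11 to 0.57 (H2-Eb1), -0.64 to 0.040 (Cd74) and -0.16 to 0.11 (H2-DMa). With IMQ they ran from -0.21 to 1.37 (H2-Aa), -0.051 to 0.84 (H2-Ab1), -0.24 to 1.16 (H2-Eb1) and -0.38 to 0.69 (Cd74). Interactions ran from -0.74 to 0.85 (H2-Aa), -0.37 to 0.57 (H2-Ab1), -0.59 to 0.82 (H2-Eb1), -0.086 to 1.00 (Cd74) and -0.75 to 0.56 (Ciita), and H2-DMa with IMQ in WT from -0.052 to 0.14. Ciita, at 6 to 180 reads per library, is the member most limited by depth.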

Other observations

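Beside class II, replicate 5 of IMQ treated WT was nearest to the untreated libraries in several lists at once. Its plasma cell sum of 422 CPM was 2.58 times the median of the other 4 libraries of its group, its early B lineage sum of 1.38 CPM 3.73 times and its later B lineage sum of 21.6 CPM 2.09 times, while its neutrophil sum was 0.958 times that median. Replicate 2 of IMQ treated KO had 2.69 times the median monocyte sum and 7.66 times the median Ciita of the other 4 libraries of its group, at 1.03 times their plasma cell sum. The ratio of H2-Ab1 to H2-Aa per kilobase ran from 1.17 to 3.96 over the 20 libraries, with medians of 1.59 in untreated WT, 1.49 in untreated KO, 1.90 in IMQ treated WT and 2.06 in IMQ treated KO. Cd74 over H2-Ab1 ran from 5.39 to 8.58 in untreated WT and from 1.05 to 6.80 in IMQ treated WT.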
